A study of Arabidopsis thaliana with 12 samples.

Results

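FZL, SECE1 and CPN60B3 are 3 nuclear genes of Arabidopsis thaliana whose products shape the inner membranes of the chloroplast, insert proteins into them and fold proteins in the stroma. They were followed here on 12 expression arrays, 6 of plants that had recovered from a cold treatment and 6 of control plants. Each is represented by the probe whose annotation names it alone: AT1G03160 for FZL, AT4G14870 for SECE1 and AT5G56500 for CPN60B3, listed as Cpn60beta3 in the gene table. These are 3 of the 691 genes that a probe names alone. On each array 692 probes name a single gene, 870 name several and 1877 have no gene named here. They were chosen by name with their measured values on these same arrays, recovered against control, already known. Those values are therefore given as descriptions, with no test.

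Thylakoids are the internal membranes that carry the photosystems, and they are built from lipids, from proteins made inside the plastid and from proteins imported from the cytosol. FZL is a dynamin-related GTPase of chloroplast membranes, and Arabidopsis plants that lack it have disorganized thylakoids and abnormally shaped chloroplasts. SECE1 is the small SecE subunit of the thylakoid Sec translocase. It forms a protein channel together with SCY1, while the motor ATPase SECA1 drives unfolded proteins through that channel. CPN60B3 is a beta subunit of the plastid chaperonin, a barrel of alpha and beta subunits in which imported and newly made proteins, the large subunit of Rubisco among them, reach their folded state.

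All samples were total RNA of wild type, ecotype Columbia 0. Recovered plants spent 24 h in medium light at 4 °C, which the labels call photoinhibitory, and then 24 h at 20 °C in the same light, and control plants were grown at 20 °C in medium light with no cold period. The labels name no organ and no age, and no group was sampled directly after the cold. Nothing in the labels ties the samples of a group to different plants, so any spread given here may be technical.

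Deposited values are linear intensities in arbitrary units, on a scale that ends at 100. The arrays of the 2 groups differed as a whole: the median probe stood at 0.108 ± 0.0142 in recovered samples and 0.556 ± 0.0159 in control samples (SD, n = 6 each), and 388 to 564 probes were listed at 0 on recovered arrays against 154 to 162 on control arrays. A lower deposited intensity after recovery was therefore the common case, and each gene was also described by its percentile within the array, the share of all probes of the array lying below it (ties averaged), which no rescaling of an array can alter. Control samples 1 and 2, 3 and 4, and 5 and 6 resembled each other closely, with deviations from the group mean that correlated at 0.813 to 0.927 across probes, so the controls may hold fewer than 6 independent samples. Among recovered samples the same neighbours correlated at -0.115 to 0.00921 and all other pairs at -0.279 to -0.187. Deviations from a shared group mean lean negative by construction. The same recovered neighbours also had like counts of probes at 0: 416 and 409, 564 and 556, and 388 and 392. The recovered group may likewise hold fewer than 6 independent samples. Of 8 genes fixed as markers of photosynthetic tissue, 7 had a probe naming them alone. The antenna protein LHCB1.5 averaged the 99.4th percentile in recovered samples and likewise in control samples, and the photosystem II subunit PSBW averaged 99.6 in recovered and 99.7 in control samples. The groups did not overlap for PRK (86.7 ± 0.674 in recovered, 63.1 ± 10.5 in control samples) and PSBY (94.8 ± 0.618 in recovered, 87.3 ± 2.42 in control samples), both higher after recovery. An upward separation in percentile was common on these arrays, at 1018 of all probes (29.6%). The groups overlapped for PSAN, SBPASE and CHLP, whose mean percentiles were 79.3 to 97.4 in recovered and 77.1 to 96.1 in control samples. What part these markers' differences have in the members' values was not tested. If recovered and control arrays were processed apart, that batch and the group cannot be told apart.

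FZL was the one member that was brighter in recovered plants. Its intensities were 3.14, 2.49, 3.15, 3.23, 3.09 and 3.68 in recovered samples 1 to 6, against 1.84, 1.96, 2.14, 2.28, 1.87 and 2.08 in control samples 1 to 6. Every recovered sample lay above every control sample, with recovered sample 2 the nearest to the controls at a gap of 0.211. Group means were 3.13 ± 0.380 in recovered and 2.03 ± 0.168 in control plants (SD, n = 6 each), a 1.54-fold ratio of means and a difference of 2.90 times the larger SD. Such a separation, with recovered plants higher, was found for 177 of all probes (5.15%), while 2375 probes (69.1%) separated with recovered plants lower. These shares are over probes of every intensity, and the share among probes as bright as FZL was not counted. Among the photosynthetic markers, PSBW, PSBY, PSAN and LHCB1.5 also separated upward in intensity. Their ratios of means were 1.68, 1.85, 1.75 and 1.93, each larger than that of FZL. PRK and CHLP overlapped, and SBPASE separated downward.

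The position of FZL on the array was also higher in recovered plants, by a small step near the top of the scale. It was the 145th to 198th brightest probe on recovered arrays and the 241st to 322nd on control arrays. In percentiles, recovered samples ran from 94.3 over a median of 95.2 to 95.8, against 90.7, 91.7 and 93.0 in control samples. These groups did not overlap either, a pattern with recovered plants higher that 1018 probes (29.6%) shared. Separation upward in both intensity and percentile was found for 142 probes (4.13%), again over probes of every intensity. The median absolute change over all probes was 13.7 points, and 16.7% of probes changed by less than the 3.40 points of FZL. That comparison covers probes at every position, whereas a probe as near the top as FZL has little room to rise.

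SECE1 showed the opposite picture in deposited values. Its intensities were 0.114, 0.295, 0.114, 0.119, 0.176 and 0.194 in recovered samples 1 to 6, against 0.881, 1.10, 0.964, 0.972, 0.858 and 1.05 in control samples. No values of the groups overlapped, and the highest recovered sample, number 2, lay 0.563 below the lowest control sample. Means were 0.168 ± 0.0707 in recovered and 0.970 ± 0.0928 in control plants (SD, n = 6 each), 5.76 times lower after recovery, a ratio that an unknown background of the arrays makes uncertain. A separation in this direction was the rule on these arrays, at 69.1% of probes.

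Within the array the difference was smaller and the groups met. The percentile of SECE1 was 47.2, 72.8, 54.6, 55.0, 64.4 and 66.7 in recovered samples 1 to 6, against 71.0, 78.7, 73.8, 73.7, 69.3 and 77.0 in control samples. Recovered sample 2 lay above control samples 1 and 5, and the other recovered samples lay below all controls. Mean percentiles were 60.1 ± 9.44 in recovered and 73.9 ± 3.52 in control plants, a change of -13.8 points that was 1.46 times the larger SD. Of all probes, 50.4% changed by less. Ranked only among probes above 0 on every array, the change of SECE1 was -22.0 points. A full separation downward in percentile occurred in 696 probes (20.2%), and SECE1 was not among them. Separated downward in intensity while overlapping in percentile, as SECE1 was, were 1426 probes (41.5%).

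CPN60B3 was lower in deposited intensity and higher in position. Its intensities were 0.0744, 0.213, 0.149, 0.166, 0.0863 and 0.0778 in recovered samples 1 to 6, against 0.313, 0.325, 0.392, 0.400, 0.393 and 0.352 in control samples. All recovered samples lay below all control samples, by a gap of 0.0996, and means were 0.128 ± 0.0569 in recovered and 0.362 ± 0.0379 in control plants (SD, n = 6 each), 2.84 times lower after recovery. A downward separation in intensity was found for 69.1% of all probes. The log2 difference of CPN60B3, -1.62 in deposited values, was close to the median of -1.58 over the 2409 probes that were above 0 on every array.

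In percentiles, CPN60B3 stood at 34.9, 65.9, 61.7, 64.2, 46.5 and 41.9 in recovered samples 1 to 6, against 29.3, 30.2, 33.4, 33.8, 34.4 and 30.5 in control samples. The groups did not overlap, an upward separation that 29.6% of all probes showed, and recovered sample 1 cleared the highest control sample by only 0.465 points. Recovered samples 2, 3 and 4 were high and samples 1, 5 and 6 were much nearer the controls, so the recovered group was spread over 31.1 points and the control group over 5.12. The mean change of 20.6 points (52.5 ± 13.1 in recovered, 31.9 ± 2.18 in control plants) was 1.57 times the larger SD, and 65.2% of probes changed by less. Separated downward in intensity and upward in percentile, as CPN60B3 was, were 275 probes (8%).

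**Figure D1:**
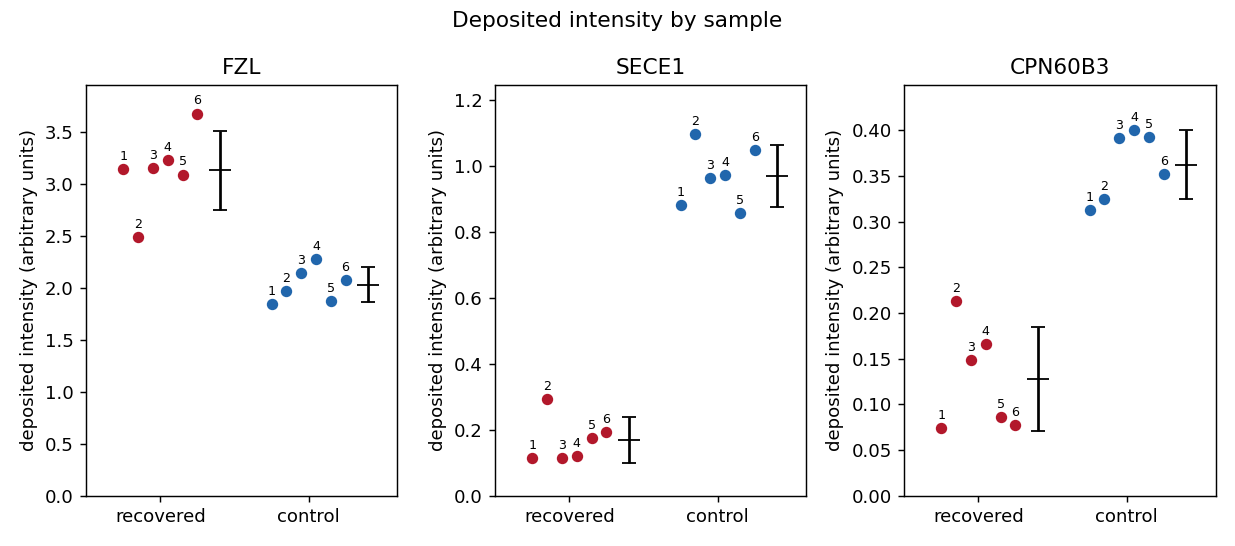
Deposited intensity (arbitrary units, axes from 0) of the 3 genes in each of 6 recovered (red) and 6 control (blue) samples, labelled with sample numbers, with mean ± SD in black. FZL lies higher in recovered samples, SECE1 and CPN60B3 lie lower, and for all 3 genes recovered sample 2 is the nearest to the controls.

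**Figure D2:**
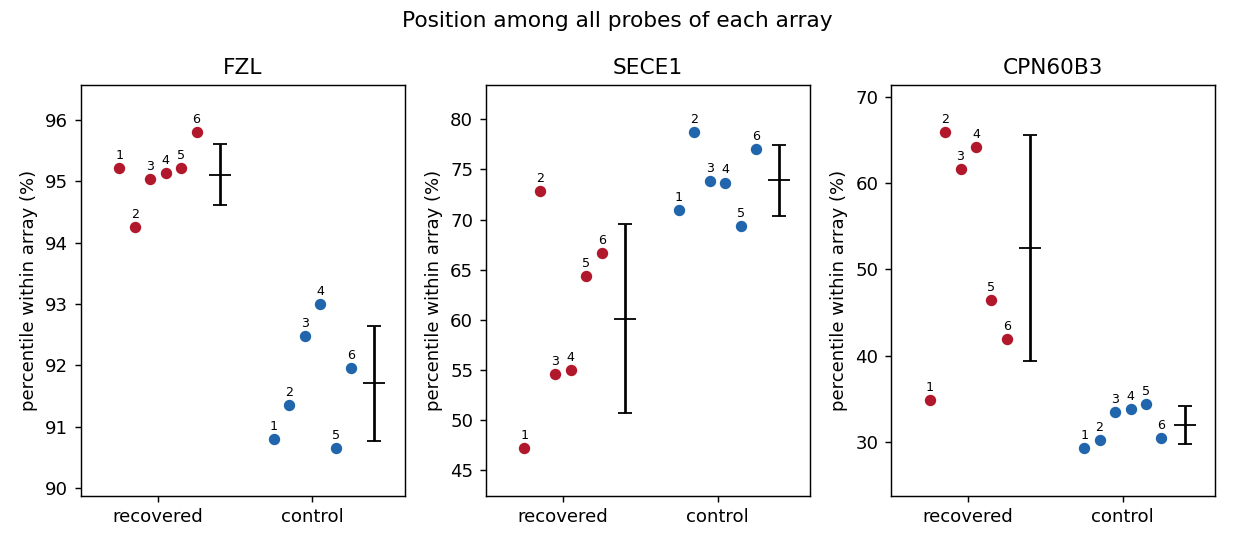
Percentile of the same probes among all probes of each array, in 6 recovered (red) and 6 control (blue) samples, with mean ± SD in black and an axis range of its own in each panel. FZL keeps its separation, SECE1 overlaps through recovered sample 2, and CPN60B3 is higher in recovered samples, from 34.9 to 65.9 against 29.3 to 34.4.

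The plots of intensity and of percentile by sample show a feature common to the 3 genes. Recovered sample 2 had the lowest FZL value and the highest SECE1 and CPN60B3 values of its group, and so lay nearest the controls in intensity each time. It also had the highest array median of the recovered samples, 0.128, and what part this has in its dim probes was not tested. Over the 2409 probes, after quantile normalization, recovered sample 2 was the recovered sample closest to the control mean for 456 probes (18.9%), against 349 to 445 probes for each of the other 5. That count is on another scale than the intensities above. On it, recovered sample 2 lay farthest from the control mean for CPN60B3, at -1.43 against -2.60. Its likeness to its own group was ordinary: its Spearman correlation with the mean of the other recovered arrays was 0.930, within the range of 0.914 to 0.936 over the recovered arrays. Without recovered sample 2 the log2 difference after quantile normalization was 0.79 for FZL, -0.99 for SECE1 and 0.44 for CPN60B3.

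The spread among replicates also set the genes apart from each other. On the log2 scale FZL had an SD of 0.182 in recovered and 0.118 in control samples, and 14.9% of the 2409 probes were steadier than FZL in recovered plants. SECE1 had an SD of 0.554 in recovered and 0.138 in control samples, and CPN60B3 one of 0.646 and 0.154. The median probe had an SD of 0.421 in recovered and 0.184 in control samples, so all 3 were steadier than the median probe in controls, and SECE1 and CPN60B3 were more variable than it after recovery. The comparison was with probes of every intensity. FZL was far brighter than SECE1 and CPN60B3 after recovery, so gene and brightness cannot be told apart here. Averaging consecutive samples left the order of the groups intact in intensity. FZL then had means of 2.82, 3.19 and 3.38 in the recovered pairs and 1.90, 2.21 and 1.97 in the control pairs. SECE1 had 0.204, 0.116 and 0.185 in the recovered pairs and 0.989, 0.968 and 0.954 in the control pairs, and CPN60B3 0.144, 0.157 and 0.0821 in the recovered pairs and 0.319, 0.396 and 0.372 in the control pairs. In percentile the averaged pairs did not overlap either. SECE1 had 60.0, 54.8 and 65.5 in recovered and 74.8, 73.8 and 73.2 in control pairs. CPN60B3 had 50.4, 62.9 and 44.2 in recovered and 29.7, 33.6 and 32.4 in control pairs. FZL had 94.7, 95.1 and 95.5 in recovered and 91.1, 92.7 and 91.3 in control pairs. How many of all probes separate in such averages was not counted.

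How far each difference depended on the scaling was read from fits of all 2409 probes with limma, in which the log2 difference is recovered minus control. After quantile normalization the threshold of 0.05 on the adjusted p was met by 1653 probes (68.6%), of which 903 were higher (37.5% of those tested) and 750 lower (31.1%). As deposited 238 were higher (9.88%) and 1819 lower (75.5%). These fits treat all arrays as independent. With consecutive samples averaged after quantile normalization, 1261 probes passed, 693 higher and 568 lower. FZL was positive throughout, at 0.75 (SE 0.112) after quantile normalization, 0.62 (SE 0.107) as deposited, 2.55 (SE 0.132) after median centring and 0.42 (SE 0.109) after cyclic loess. SECE1 was negative throughout, at -0.88 (SE 0.198), -2.61 (SE 0.224), -0.69 (SE 0.210) and -0.81 (SE 0.214) in the same order of scalings. CPN60B3 changed sign, at 0.56 (SE 0.232), -1.62 (SE 0.257), 0.31 (SE 0.263) and 0.65 (SE 0.259). These fits, median centring included, used only the 2409 probes. Ratios to the median of all probes of the array were taken as well. That of SECE1 averaged 1.55 ± 0.531 in recovered and 1.75 ± 0.183 in control samples (SD), with overlap. CPN60B3 averaged 1.18 ± 0.492 and 0.651 ± 0.0544, also with overlap, and FZL 29.5 ± 6.03 and 3.65 ± 0.261. The size of the SECE1 difference thus depended on the probes used for scaling.

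**Figure D3:**
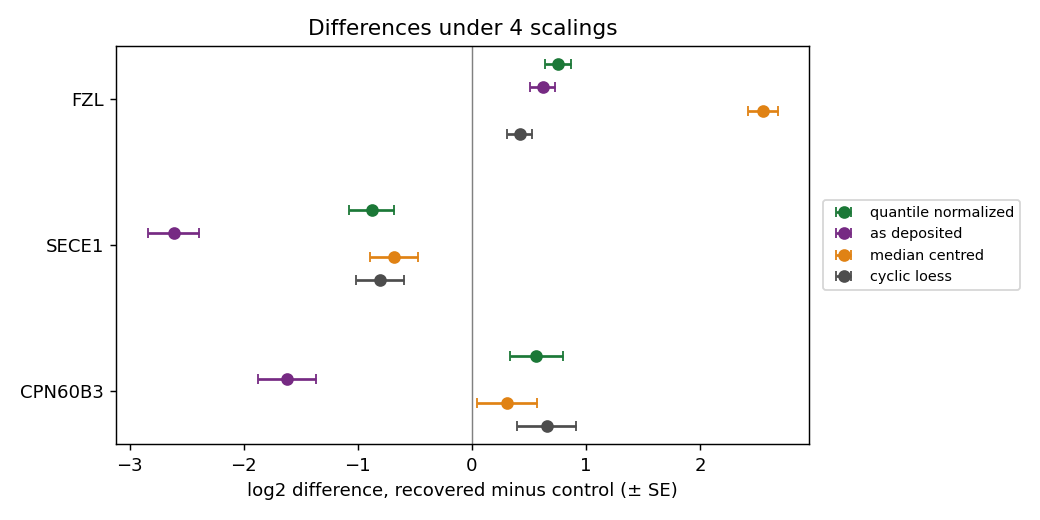
Log2 difference (recovered minus control) of the 3 genes under 4 scalings, with bars of ± 1 SE from limma and a grey line at 0. FZL lies right of 0 and SECE1 left of 0 under all 4, and CPN60B3 lies left of 0 as deposited (-1.62) and right of 0 under the other 3.

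Among all tested probes, FZL ranked 159th from the highest of 2409 in deposited log2 difference, above 93.4% of probes. After quantile normalization it ranked 720th, above 70.1% of probes. SECE1 lay above 28.3% of probes as deposited and above 22.8% after quantile normalization. CPN60B3 lay above 49.3% of probes as deposited and above 64.2% after quantile normalization. The quartiles of all tested probes were -2.77 and -0.47 as deposited and -0.79 and 0.92 after quantile normalization. FZL thus lay beyond the upper quartile as deposited and within the quartiles after quantile normalization, SECE1 the other way round at the lower quartile, and CPN60B3 within the quartiles in both.

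**Figure D4:**
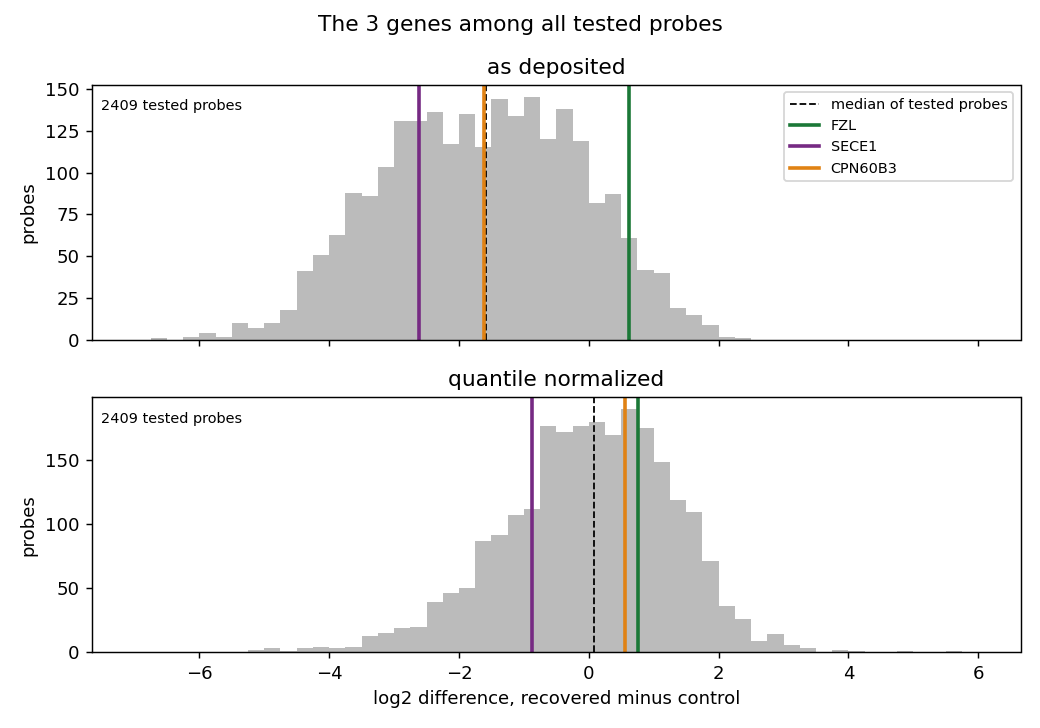
Histograms of the log2 difference (recovered minus control) of the 2409 tested probes, as deposited (top) and after quantile normalization (bottom), with the median probe as a dashed line and the 3 genes as coloured lines. As deposited the median is -1.58 and CPN60B3 lies on it, whereas FZL lies in the upper tail.

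Of 50 other genes of thylakoid shaping, thylakoid protein transport and plastid protein folding, 3 had a probe that names them alone, and 5 more lay on probes shared with other genes and were not read. The 3 were CPN60B4, AT4G38490 from the transport list and AT5G55220 from the folding list. The gene table gives no symbol for either locus. The lists were chosen with earlier results of these arrays known, so the adjusted p of a list gene is descriptive. None of the partners of SECE1 in the Sec translocase (SCY1, SECA1) and none of the alpha subunits or lid proteins of the chaperonin had such a probe, so the members could not be set beside their complexes. After quantile normalization 1 of the 2 tested list genes was higher after recovery and 0 were lower, and as deposited 0 were higher and 2 lower. Over all tested probes, 37.5% were higher and 31.1% lower after quantile normalization, and 9.88% higher and 75.5% lower as deposited, so lower as deposited was the common outcome.

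CPN60B4 is another beta subunit of the plastid chaperonin, known in Arabidopsis for folding a subunit of the chloroplast NADH dehydrogenase-like complex. Its deposited intensity was 0.0565 ± 0.0303 in recovered and 0.280 ± 0.0489 in control plants (SD, n = 6 each), with no overlap, a downward separation that 69.1% of all probes showed. Its log2 difference after quantile normalization was -0.06 (SE 0.261, limma adjusted p = 0.855), and as deposited it was -2.46 (SE 0.315, limma adjusted p = 1.07e-05). In percentile it ran from 20.3 over a median of 32.7 to 44.8 in recovered samples, against 17.9, 24.8 and 27.2 in control samples, and the groups overlapped. Recovered sample 2 was the lowest for CPN60B4 and the highest for CPN60B3.

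AT5G55220 had an intensity of 0.0726 ± 0.0330 in recovered and 0.117 ± 0.0189 in control plants (SD, n = 6 each), and the groups overlapped. It was higher after quantile normalization (log2 difference 2.07, SE 0.286, limma adjusted p = 3.92e-05) and lower as deposited (log2 difference -0.78, SE 0.242, limma adjusted p = 0.00915). The log2 difference was smaller after median centring, at 1.15 (SE 0.240), and after cyclic loess, at 1.29 (SE 0.240). With consecutive samples averaged after quantile normalization, the limma adjusted p was 0.0019. Its mean percentile was 38.0 ± 10.7 in recovered and 9.37 ± 1.15 in control samples. AT4G38490 was listed at 0 in recovered samples 1 and 3 and in control samples 1, 3, 5 and 6, and was therefore outside the fit. Its other recovered values were 0.104, 2.23, 0.00570 and 0.223, and its other control values 0.000658 and 0.0170.

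Among the 691 other probes that name a single gene, those most like each member were found by the Pearson correlation of percentiles over the 12 samples, a description into which the difference between the groups enters. For FZL they were AT3G23940 (r = 0.968), AT1G44830 (r = 0.963) and AT5G52530 (r = 0.963), and 49 probes had r above 0.9. For SECE1 they were AT4G17440 (r = 0.925), AT1G62010 (r = 0.906) and AT4G26770 (r = 0.877), and for CPN60B3 UGT74D1 (r = 0.942), AT5G25990 (r = 0.919) and AT5G49800 (r = 0.917). With group means subtracted, the same 9 correlations were 0.709 to 0.757 for FZL, 0.742 to 0.858 for SECE1 and 0.786 to 0.937 for CPN60B3. The closest of these, UGT74D1, had a mean percentile of 41.6 ± 10.6 in recovered and 9.04 ± 1.85 in control samples. AT5G25990 was at or near 0 in both groups, with a mean intensity of 0.00038 ± 0.00093 in recovered samples and 0 in every control sample. Probes at 0 share a tied percentile, which depends on the number of zeros of the array. What part this has in the correlation of AT5G25990 with CPN60B3 was not tested.

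Between the members themselves, percentiles within the recovered group correlated at -0.298 for FZL with SECE1, -0.665 for FZL with CPN60B3 and 0.312 for SECE1 with CPN60B3. Within the control group the same pairs were at 0.374, 0.358 and -0.432 (n = 6 arrays each). Every pair had opposite signs in the 2 groups, and with so few arrays these values describe the arrays only.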

How the data were processed

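Total RNA of 12 samples, 6 recovered and 6 control, was hybridized to expression arrays. Deposited values are linear intensities, with a single value for each probe in each sample. How the authors corrected, scaled and floored it, and the platform's probe sequences, are not given in the sources used here. Genes were named from the platform annotation where a probe names 1 gene, and symbols and loci from the TAIR10.1 gene table. Members and gene lists were chosen with earlier results of these data known.

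Percentiles were computed over all probes. For fits, probes with a 0 on any array were left out (2409 remained), log2 intensities were quantile normalized, and limma 3.58.1 in R 4.3.3 tested recovered against control, two-sided, with Benjamini-Hochberg adjustment and a threshold of 0.05. More probes were lost to zeros on recovered than on control arrays, so the filter depends on the group. The fit was tested on simulated data with independent samples, so that test does not cover the likeness of consecutive samples seen here. Named were the members, list genes with a probe of their own, and the 3 most alike probes per member. Alternatives covered scaling, zeros, an offset of 0.1, dim probes, the replicate number as a block, averaged consecutive samples and leaving out each sample. Same-numbered samples were checked for pairing: their deviations correlated at -0.0256 to 0.102, against -0.110 to 0.0829 for samples of different number in the other group. These ranges mostly overlapped, but the highest same-number value lay above the other range, so the check did not settle pairing. The main fit did not treat them as pairs, and the replicate block allowed for it. The number of arrays limits the precision.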

Additional observations from a re-analysis of the deposited data

Results flagged for a closer look

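A search for single samples lying far from the rest of their group covered 52 sets of 6 values, in intensity and percentile. It found 2, and about 2.6 would arise by chance among independent samples. Both concern AT4G38490. In recovered sample 4 its intensity was 2.23, whereas the remaining recovered samples ranged from 0 to 0.223. In control sample 4 it was 0.0170, whereas the remaining control samples ranged from 0 to 0.000658. No such sample was found for FZL, SECE1 or CPN60B3.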

How the results depend on the processing

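The 3 genes kept their sign of log2 difference in all alternatives run except CPN60B3 as deposited (-1.62). Besides CPN60B3 as deposited, the log2 differences that moved by more than 1 SD between replicates were FZL after median centring (2.55) and cyclic loess (0.42) and SECE1 as deposited (-2.61). Leaving out 1 sample gave 0.69 to 0.82 for FZL, -0.99 to -0.75 for SECE1 and 0.44 to 0.72 for CPN60B3, and percentile changes of 3.19 to 3.66, -16.3 to -11.2 and 17.9 to 24.1 points. With only probes above 0 on every array ranked, the percentile changes were 4.48, -22.0 and 15.1 points, against 3.40, -13.8 and 20.6. Of these, only that of FZL moved by more than 1 SD.

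Deposited values gave 238 probes higher and 1819 lower. With the dimmer 50% of probes left out, and so fewer tested, 925 passed (524 higher, 401 lower), and CPN60B3, itself among the dimmer probes, had no value there. Leaving out 1 sample gave 1578 to 1637 calls. Of the other list genes, 0 were higher and 2 lower as deposited, 2 were higher with zeros at the smallest positive value or 0.1 added, which brings in AT4G38490, and 0 were higher without the dimmer probes. AT5G55220 was at -0.78 as deposited. CPN60B4, which did not pass, turned positive with zeros kept (0.63), 0.1 added (0.27), and without recovered sample 2 or 3 (range -0.20 to 0.11 over single omissions; 0.11 and 0.08 there).

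With the replicate block the 3 differences were the same by construction (0.75, -0.88 and 0.56), with SE of 0.111, 0.149 and 0.207, and the best-correlated sample of the other group had the same number for 5 of 12 samples. The block changed no call among the list genes. The unknown background limits every dim probe, SECE1 and CPN60B3 after recovery among them.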
